A study of Homo sapiens with 4 samples.

Results

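ATF4 and 9 genes that work with it or answer to it in the integrated stress response were followed in J.gamma1 cells carrying a short hairpin RNA against ELOVL5. The 10 genes were taken by name (ATF4, ATF5, ATF3, DDIT3, DDIT4, TRIB3, CHAC1, SESN2, CEBPB and VLDLR), and each matched a single Ensembl identifier among the 64252 in the count table. All 10 passed the filter on low counts. These genes, and the lists set beside them below, were chosen with earlier results of these data known. RNA was sequenced from 2 libraries labelled shELOVL5 and 2 libraries labelled shNC, a control hairpin. The column names of all these libraries carry the tag D4, which the labels do not explain. J.gamma1 is a Jurkat-derived line of T-cell acute lymphoblastic leukemia that lacks phospholipase C gamma 1, so every library shares that defect. ELOVL5 encodes an elongase of polyunsaturated fatty acids. A single line and a single hairpin label against ELOVL5 are described, and no hairpin sequence was used here. No treatment that provokes stress is named in the labels. The comparison asks how ATF4 and its effectors respond when ELOVL5 is knocked down.

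The integrated stress response starts with kinases that phosphorylate the translation factor eIF2 when amino acids, heme or protein folding fail, or when double-stranded RNA appears. Most translation then slows, while ATF4 mRNA is translated more because short upstream reading frames normally keep ribosomes from its start codon. ATF4 protein pairs with other basic leucine zipper (bZIP) factors and switches on genes for amino acid supply, tRNA charging, redox balance and, when stress lasts, cell death. The data below are RNA levels, so they show neither ATF4 protein nor its binding to DNA, and the word effector rests on background knowledge.

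The libraries held 17338719 and 16311139 counts in shELOVL5, and 17246603 and 16254002 counts in shNC. Levels are given as CPM, counts relative to library size after scaling by the trimmed mean of M-values (TMM). ELOVL5 stood at 71.8 and 70.0 CPM in shELOVL5, against 342 and 353 CPM in shNC, a log2 fold change of -2.29 (SE 0.0486). T lineage markers were present, with all 14 listed genes above a mean of 1 CPM. Of these, 3 were higher (21.4%) and 7 lower (50%), against 9.22% and 11.2% of all tested genes. Their summed level was 2095 to 2142 CPM in shELOVL5 and 2109 to 2125 CPM in shNC. Myeloid markers summed to 1.15 to 1.602 CPM in shELOVL5 and 1.00 to 1.68 CPM in shNC, and LYZ, CSF1R and S100A8 were at 0 in every library. Erythroid markers summed to 0.744 to 0.787 CPM in shELOVL5 and 2.12 CPM in each shNC library, with HBB and ALAS2 at 0. Epithelial and fibroblast markers summed to 13.2 to 13.9 CPM in shELOVL5 and 12.6 to 13.1 CPM in shNC, and EPCAM, CDH1, COL1A2 and DCN were at 0. B cell markers summed to 27.0 to 30.1 CPM in shELOVL5 and 40.9 to 47.7 CPM in shNC, mostly from CD79A (log2 fold change -0.65, adjusted p = 0.00267), while PAX5 was at 0 in 3 of the 4 libraries. Their part in the results was not tested. In bulk RNA, fewer cells that express a gene and less RNA per cell cannot be told apart. The labels do not say that replicates were separate cultures, so each p-value covers no more than the spread among these 4 libraries, which may be technical.

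ATF4 RNA and most of its effectors were lower in shELOVL5. Of the 10 genes, 8 fell, 1 rose (DDIT4) and 1 did not pass (ATF3) at an adjusted p of 0.05 by edgeR's quasi-likelihood test. Over all 17461 genes tested, 11.2% fell and 9.22% rose, or 20.4% in either direction. The median log2 fold change was -0.94 over the 10 genes and 0.006 over all genes tested. Together the 10 genes took 720 and 714 CPM in the shELOVL5 libraries, against 1245 and 1251 CPM in the shNC libraries. In 8 genes both shELOVL5 libraries lay below both shNC libraries, an arrangement seen in 30.1% of all genes tested, and in DDIT4 both lay above, as in 30% of all genes tested.

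**Figure D1:**
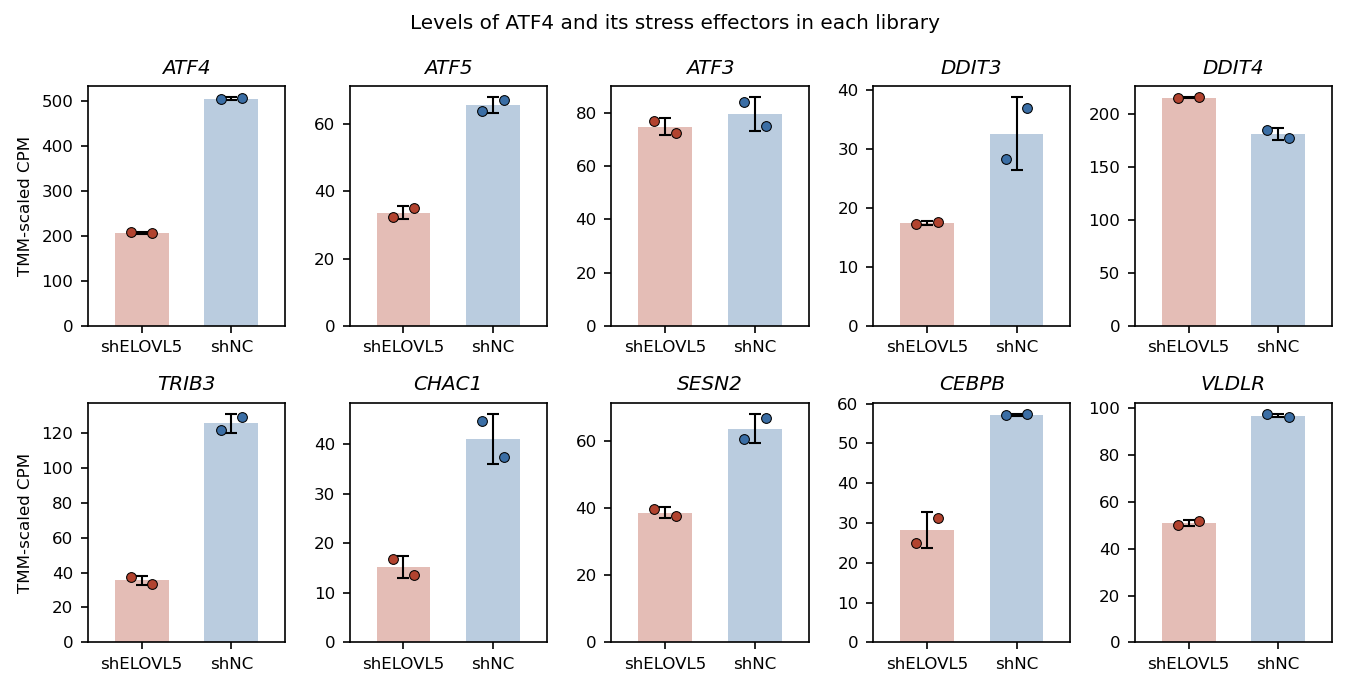
TMM-scaled CPM of each gene, with shELOVL5 to the left of shNC in every panel; points are libraries, bars are means of 2 libraries and whiskers are 1 SD. The ATF4 groups stand far apart for their spread (207 ± 2.41 against 505 ± 2.70 CPM), DDIT4 is the single gene with higher shELOVL5 bars and separate points, and the ATF3 points overlap.

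ATF4 (ENSG00000128272, GRCh38 chromosome 22, 39519695 to 39522685), the bZIP factor that carries the response into the nucleus, had 209 and 205 CPM in shELOVL5, against 503 and 506 CPM in shNC. Replicates of a group lay within a few CPM of each other and the groups were far apart. The log2 fold change was -1.29, or 2.44-fold lower, with an SE of 0.0396, a 95% interval of -1.37 to -1.20 and an adjusted p of 1.95e-08. Counts assigned to ATF4 pseudogenes were few beside the 3646 and 3391 counts of ATF4 in shELOVL5 and the 8539 and 8128 in shNC. ATF4P3 had 7 and 3 counts in shELOVL5 against 21 and 12 in shNC, ATF4P4 had 0 in each shELOVL5 library against 2 and 3 in shNC, and ATF4P1 and ATF4P2 had none. The neighbour MIEF1, a mitochondrial fission gene on the same strand and 1562 bases away, fell by 0.26 on the log2 scale (adjusted p = 0.00861).

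The factors that pair with or follow ATF4 were split. ATF5 (ENSG00000169136, chromosome 19, 49928702 to 49933935), a close relative of ATF4 that is also controlled through upstream reading frames and takes part in the mitochondrial stress response, had 32.3 and 34.98 CPM in shELOVL5, against 63.9 and 67.2 CPM in shNC. Both shELOVL5 libraries lay well under both shNC libraries, 1.95-fold on average (adjusted p = 4.41e-05, log2 fold change -0.96, SE 0.0899). CEBPB (ENSG00000172216, chromosome 20, 50190734 to 50192689), a C/EBP factor and bZIP partner of ATF4, had 24.9 and 31.4 CPM in shELOVL5, against 57.0 and 57.3 CPM in shNC. The shELOVL5 replicates of CEBPB differed from each other, yet both stayed under the shNC pair (log2 fold change -1.02, SE 0.115, adjusted p = 0.000161). DDIT3 (ENSG00000175197, chromosome 12, 57516588 to 57521737), which encodes CHOP, a C/EBP-family factor tied to cell death in lasting stress, had 17.3 and 17.7 CPM in shELOVL5, against 28.3 and 37.0 CPM in shNC. Here the shNC replicates were the ones apart (log2 fold change -0.90, SE 0.144, adjusted p = 0.00153). ATF3 (ENSG00000162772, chromosome 1, 212565334 to 212620777), an early stress-induced factor that ATF4, p53 and other signals can all raise, had 77.0 and 72.4 CPM in shELOVL5, against 83.8 and 75.0 CPM in shNC. Its groups overlapped and it did not pass (log2 fold change -0.09, 95% interval -0.26 to 0.08, adjusted p = 0.48), an interval that leaves out the changes of the 8 genes that fell.

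TRIB3 and CHAC1 had the 2 largest falls of the set. TRIB3 (ENSG00000101255, chromosome 20, 362835 to 397559) encodes a pseudokinase that is raised by ATF4 with CHOP and feeds back on ATF4. It had 37.4 and 33.5 CPM in shELOVL5, against 122 and 129 CPM in shNC, a gap far wider than either pair. The log2 fold change was -1.82, or 3.54-fold lower (SE 0.0787, adjusted p = 2.34e-07). Only 0.452% of all tested genes had a lower log2 fold change than TRIB3. CHAC1 (ENSG00000128965, chromosome 15, 40952962 to 40956519) encodes a cytosolic enzyme that breaks down glutathione. It had 16.8 and 13.6 CPM in shELOVL5, against 44.6 and 37.5 CPM in shNC (log2 fold change -1.43, SE 0.140, adjusted p = 6.35e-05). The 95% interval of TRIB3 (-1.997 to -1.65) did not overlap that of ATF4, while that of CHAC1 (-1.74 to -1.12) contained it.

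SESN2 and DDIT4, which both restrain the growth kinase complex mTORC1, went opposite ways. SESN2 (ENSG00000130766, chromosome 1, 28259527 to 28282491) encodes sestrin 2, a leucine-binding inhibitor of the GATOR2 complex, and had 39.9 and 37.6 CPM in shELOVL5, against 60.7 and 66.9 CPM in shNC. It fell by 0.72 on the log2 scale (SE 0.0909, adjusted p = 0.000356), the smallest of the 8 falls. DDIT4 (ENSG00000168209, chromosome 10, 72273920 to 72276036) encodes REDD1, which acts through the TSC complex and is also raised by hypoxia and glucocorticoids. It had 216 CPM in each shELOVL5 library, against 185 and 178 CPM in shNC. The groups did not overlap and the rise was 1.19-fold (log2 fold change 0.25, SE 0.0464, 95% interval 0.15 to 0.35, adjusted p = 0.00365). Tested against a 1.2-fold change with glmTreat, DDIT4 did not pass (adjusted p = 0.844), whereas the other 8 changed genes did (3.67% of all tested genes passed as lower in that test).

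VLDLR (ENSG00000147852, chromosome 9, 2621834 to 2660053), a lipoprotein and reelin receptor that ATF4 can raise in stressed cells, had 49.9 and 51.8 CPM in shELOVL5, against 97.2 and 96.2 CPM in shNC. Both pairs were tight and the groups stood 1.90-fold apart (adjusted p = 1.10e-05, log2 fold change -0.93, SE 0.0700). LRP8, the other reelin receptor, had 39.8 and 40.6 CPM in shELOVL5 against 63.2 and 59.3 CPM in shNC (log2 fold change -0.61, adjusted p = 0.000727).

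**Figure D2:**
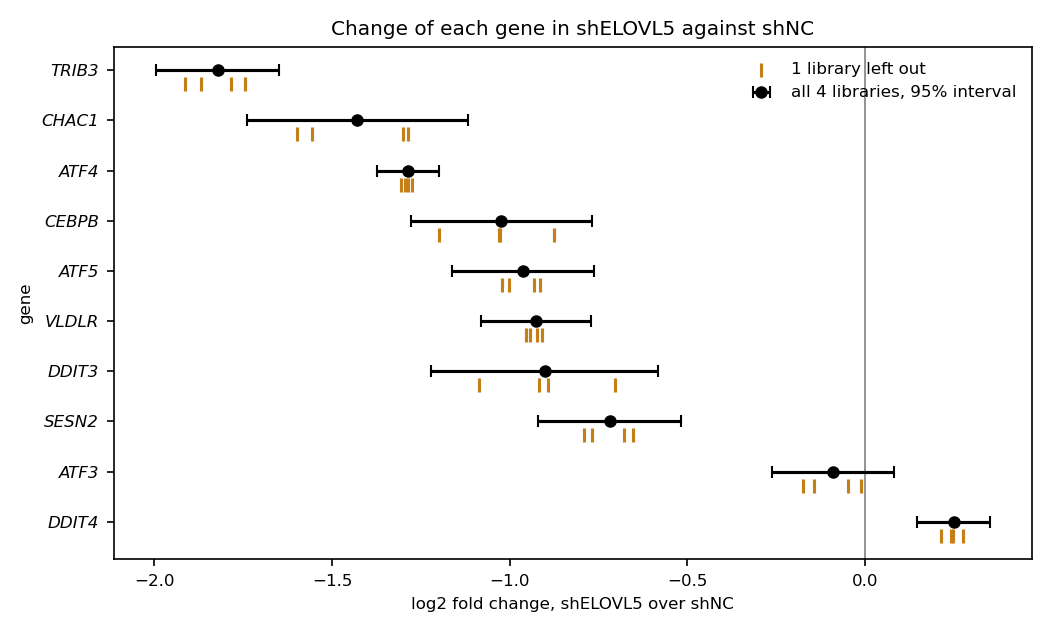
Log2 fold change of each gene, shELOVL5 over shNC, with black points and 95% intervals from all 4 libraries and orange ticks for fits with 1 library left out. The 8 genes that fell run from TRIB3 (-1.82) to SESN2 (-0.72), and the ticks for DDIT3 (-1.09 to -0.70), CHAC1 (-1.60 to -1.29) and CEBPB (-1.20 to -0.88) spread most.

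None of the 10 calls changed when any 1 library was left out. Without 1 library, the log2 fold change lay between -1.31 and -1.28 for ATF4, -1.91 and -1.75 for TRIB3, and 0.21 and 0.28 for DDIT4. The DDIT3 estimate depended on the shNC pair: it was -1.09 without shNC replicate 1 and -0.70 without shNC replicate 2, with adjusted p = 0.000242 and 0.0113 by edgeR. DDIT4 passed with the least margin, at adjusted p = 0.0425 without shELOVL5 replicate 1 and 0.0350 without shELOVL5 replicate 2.

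Reads shared with overlapping genes limit some of these values, since no source used here gives the strand setting of the counting. DDIT4 shares 847 exonic bases (41.2% of its exons) with DDIT4-AS1 on the opposite strand, and the antisense gene rose too, with 691 and 730 counts in shELOVL5 against 575 and 499 in shNC (log2 fold change 0.37, adjusted p = 0.0318). VLDLR shares 738 exonic bases (7.90%) with VLDLR-AS1, which had 103 and 109 counts in shELOVL5 against 262 and 180 in shNC (log2 fold change -1.09, adjusted p = 0.00657). DDIT3 shares 105 exonic bases with AC022506.1 on its own strand, not analysed here, and 355 exonic bases (27.2%) with MARS1 on the opposite strand, a methionyl-tRNA synthetase gene with 4514 and 4435 counts in shELOVL5 against 6227 and 5823 in shNC. ATF5 shares 626 exonic bases (21.2%) with NUP62, a nuclear pore gene that did not pass (log2 fold change 0.07, adjusted p = 0.362). CEBPB shares 231 exonic bases (11.8%) with CEBPB-AS1, which had 28 and 16 counts in shELOVL5 against 33 and 54 in shNC. How such reads were split between sense and antisense genes cannot be told from these counts.

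Levels can be compared roughly between genes once divided by exonic length, here all annotated exons of a gene merged. The transcripts present may be shorter, so the places below depend on that length. Per kilobase of exon, DDIT4 (105 ± 0.0537 CPM per kilobase) and ATF4 (82.3 ± 0.959) led in shELOVL5, while ATF4 (201 ± 1.07) and DDIT4 (88.2 ± 2.57) led in shNC (SD, n = 2 each). Thus DDIT4 and ATF4 held the top places in both groups, in opposite order. TRIB3 took place 8 of 10 in shELOVL5 (10.3 ± 0.815 CPM per kilobase) and place 3 in shNC (36.5 ± 1.56). ATF3, which did not pass, took place 3 in shELOVL5 (18.5 ± 0.802) and place 8 in shNC (19.7 ± 1.54). In shELOVL5 the libraries of CEBPB and DDIT3 overlapped, as did those of ATF5 and SESN2, and the lower SESN2 library and the higher TRIB3 library both rounded to 10.9 CPM per kilobase. In shNC the libraries of DDIT3, ATF5, CHAC1, ATF3 and SESN2 formed a run in which each neighbour overlapped the next, between 17.6 and 28.3 CPM per kilobase. VLDLR was last in both groups, at 5.45 ± 0.144 in shELOVL5 and 10.4 ± 0.0788 in shNC.

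**Figure D3:**
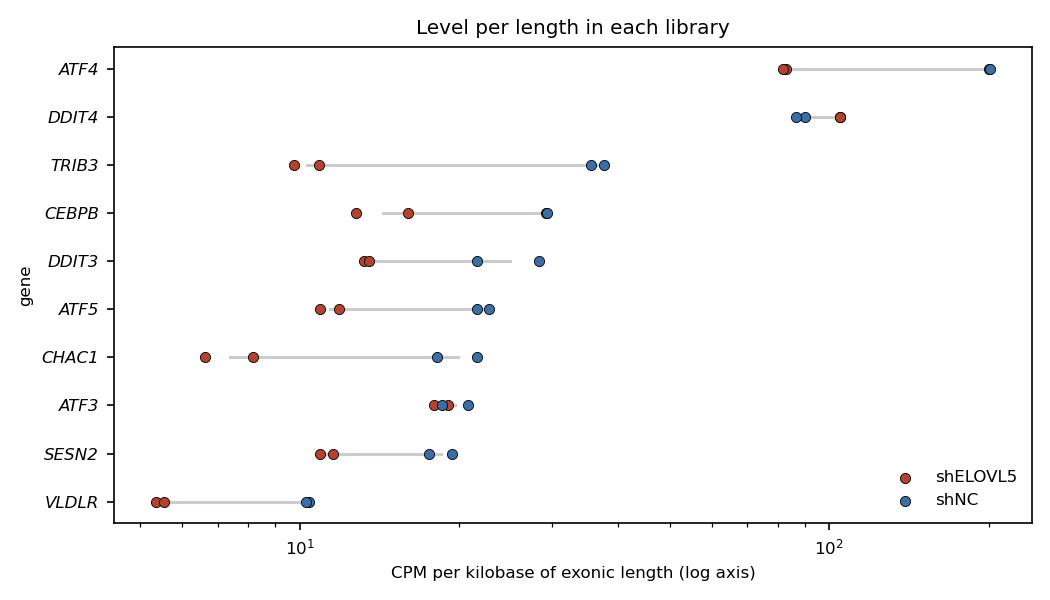
CPM per kilobase of exonic length on a log axis, with 2 points per group for each gene and a grey line between the group means. TRIB3 and CHAC1 have long lines, ATF3 points overlap, and DDIT4 is the single gene whose shELOVL5 points stand to the right of its shNC points.

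The DNA letters that ATF4 reads with a C/EBP partner can be shown for some of these genes. That element, the C/EBP-ATF response element, has the core TGATGNAA. RefSeq promoter windows on GRCh38.p14, from 250 bases before to 50 bases after each annotated start, were available for all 10 genes, and both strands were searched. The core was present for 2 of the 10 genes (20%), CHAC1 and ATF3, against 4.46% of 27305 genes with a window. Some genes have more than 1 window. Counted by window, the core was in 2 of 18 (11.1%), against 3.62% of all 35116. For listed ATF4 targets of tRNA charging with a window it was present in 7 of 11, and for those of amino acid supply in 5 of 16. For further stress effectors it was present in 1 of 12 (FGF21, which had no counts). These lists were picked as known targets or effectors, so a share above that of all genes is no independent result. The full cAMP response element TGACGTCA, a longer-known ATF site whose letters cannot overlay the core in full, was found in none of these windows and in 2.25% of all genes. A match describes these letters only, and a window without one says nothing of sites elsewhere. Capitals mark the core in either orientation, shown for the 2 genes of the set that hold it and, to compare, for 3 ATF4 targets of amino acid supply and tRNA charging that fell, in the direction of the gene:
CHAC1: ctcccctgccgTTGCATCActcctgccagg
ATF3: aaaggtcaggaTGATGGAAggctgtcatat
ASNS: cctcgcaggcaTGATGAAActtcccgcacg
AARS1: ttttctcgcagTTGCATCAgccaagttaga
MARS1: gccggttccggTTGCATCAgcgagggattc

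Distances are from RefSeq starts. The CHAC1 match begins 209 bases before its RefSeq start, which lies inside the longer GENCODE locus given above, so the match does too, in chr15:40953251-40953280 on the plus strand, and CHAC1 fell. The ATF3 match begins 191 bases before the more upstream of its 2 annotated starts, in chr1:212565205-212565234 on the plus strand, and ATF3 did not pass. The ASNS core lies 68 bases before the start (chr7:97872458-97872487, minus strand), that of AARS1 187 bases before (chr16:70289675-70289704, minus strand) and that of MARS1 4 bases before (chr12:57488053-57488082, plus strand). ASNS, the asparagine synthetase gene and a textbook ATF4 target, had 18.1 and 19.5 CPM in shELOVL5 against 55.9 and 55.1 CPM in shNC (log2 fold change -1.56, adjusted p = 3.53e-06). It is named for its sequence, chosen after its values were seen. TRIB3, the gene with the largest fall of the set, held no core in its windows.

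Genes with ATF4-like profiles were ranked by distance from its log2 CPM (prior count 2), centred on each gene's mean, over the 4 libraries. Of 12237 genes ranked, each averaging 5 CPM or more, the nearest were ENSG00000278823, which the name tables do not annotate, PNP, ATP6V1H, PHGDH and DUSP6. Their root mean square differences were 0.0174 to 0.0493 on the log2 scale. PNP, a purine salvage enzyme gene, had 77.1 and 78.0 CPM in shELOVL5 against 195 and 194 CPM in shNC. ATP6V1H, a proton pump subunit gene, had 25.3 and 23.6 CPM in shELOVL5 against 57.7 and 60.1 CPM in shNC. PHGDH, the serine synthesis enzyme gene, is an ATF4 target and is described with its pathway below. The ERK phosphatase gene DUSP6 had 5.21 and 5.57 CPM in shELOVL5 against 13.1 and 13.8 CPM in shNC. With 4 libraries in 2 groups, this likeness says mainly that the fold change and replicate spread were alike.

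**Figure D4:**
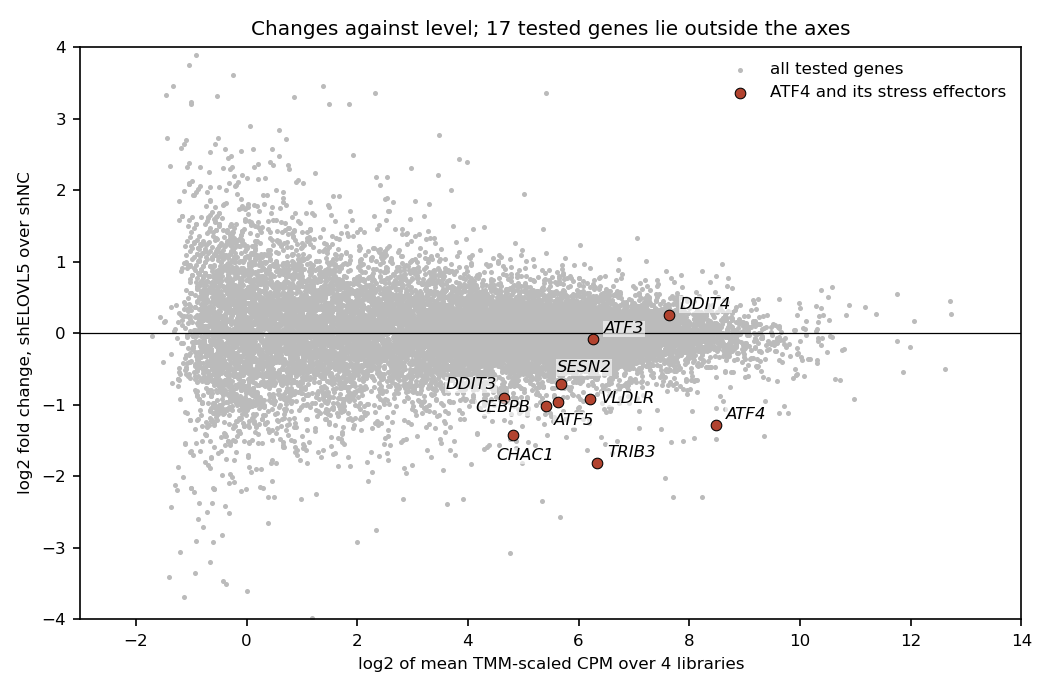
Log2 fold change (shELOVL5 over shNC) against the log2 of mean CPM for all tested genes in grey, with the 10 genes in red. ATF4 (-1.29) and TRIB3 (-1.82) stand below most of the grey cloud, with lower log2 fold changes in 1.43% and 0.452% of all tested genes. ATF3 (-0.09) and DDIT4 (0.25) stand within the cloud, and 17 tested genes lie outside the axes.

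Most genes that act upstream of ATF4 did not pass, as was also so for 13899 of all 17461 genes tested. Of 16 tested genes of stress response signalling (the eIF2 kinases, eIF2 alpha, its exchange factor and its phosphatases, with the regulators DNAJC3, GCN1, OMA1 and DELE1), 2 rose, 3 fell and 11 did not pass. The shares, 12.5% higher and 18.75% lower, lay near those over all tested genes (9.22% and 11.2%), with a median log2 fold change of -0.018. EIF2B1, a subunit gene of the exchange factor eIF2B, fell by 0.59 on the log2 scale (adjusted p = 0.000247). EIF2AK1, the heme-sensing kinase gene, fell by 0.24 on the log2 scale (adjusted p = 0.00621), though not without shELOVL5 replicate 1 (adjusted p = 0.0711). EIF2AK2, which encodes the RNA-sensing kinase PKR, rose by 0.24, DNAJC3, an inhibitor of eIF2 kinases, rose by 0.22, and the phosphatase subunit gene PPP1R15B fell by 0.15 on the log2 scale (adjusted p = 0.0355, 0.0414 and 0.0440). These 3 calls were lost with all 4 libraries under DESeq2, limma-voom, no low-count filter or robust=FALSE, and again without shELOVL5 replicate 1, shELOVL5 replicate 2 or shNC replicate 2, and DNAJC3 also without shNC replicate 1. The counts then fell to 0 or 1 rises, and to 1 fall without shELOVL5 replicate 1. EIF2AK3, the kinase gene of folding stress, and EIF2AK4, that of amino acid shortage, did not pass, at log2 fold changes of 0.22 and 0.20. PPP1R15A, a phosphatase subunit gene that ATF4 itself can raise, had a log2 fold change of -0.25 (adjusted p = 0.0782).

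The remaining known targets of ATF4 in amino acid supply mostly fell with it. Of 21 tested amino acid synthesis and transport genes, 17 fell and none rose, or 81.0% where 11.2% of all tested genes fell, with a median log2 fold change of -0.96. The lists here and below were chosen with earlier results of these data known, so their shares are descriptive only. No gene of this list rose in any of the 13 alternative fits, and 15 to 17 fell. PSAT1 and PHGDH, of serine synthesis, had 144 and 143 CPM in shELOVL5 against 412 and 384 CPM in shNC, for PSAT1, and 99.5 and 102 CPM in shELOVL5 against 255 and 258 CPM in shNC for PHGDH. MTHFD2, a mitochondrial folate enzyme gene, had 257 and 262 CPM in shELOVL5 against 548 and 533 CPM in shNC. The heavy chain gene SLC3A2 and its partner transporter gene SLC7A5 fell by 1.09 and 1.12 on the log2 scale. SLC7A11, the cystine transporter gene that feeds glutathione synthesis, had the lowest fold change of the list, with 12.5 and 14.1 CPM in shELOVL5 against 67.3 and 68.4 CPM in shNC (log2 fold change -2.35, adjusted p = 2.75e-07). ALDH18A1, which encodes the enzyme that starts proline synthesis, had the single positive value (log2 fold change 0.06, adjusted p = 0.503). These 2 genes are named after their values were seen.

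Most genes of tRNA charging also fell, with a smaller median. Of 14 tested synthetase and tRNA export genes, 12 fell and none rose (85.7% against 11.2% of all tested genes), with a median log2 fold change of -0.46. AARS1 fell by 0.78, YARS1 by 0.69, GARS1 by 0.54, and IARS1 and MARS1 by 0.47 each on the log2 scale. WARS1, the tryptophanyl-tRNA synthetase gene, and VARS1 did not pass (log2 fold change -0.0015 and -0.39), named after their values were seen.

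Further effectors of the response fell in part. Of 15 tested genes, 7 fell, 1 rose and 7 did not pass (46.7% lower against 11.2% of all tested genes). The hormone genes ADM2 and STC2 fell most, with 10.6 and 10.3 CPM in shELOVL5 against 30.5 and 31.8 CPM in shNC for ADM2, and 11.3 and 7.87 CPM in shELOVL5 against 30.3 and 28.8 CPM in shNC for STC2. PMAIP1, which encodes the death-promoting protein NOXA, fell by 0.66 and the autophagy receptor gene SQSTM1 fell by 0.46 on the log2 scale. The death receptor gene TNFRSF10B, which CHOP and p53 can both raise, rose by 0.51 on the log2 scale (adjusted p = 0.00056). FGF21 and GDF15, secreted reporters of this response in other tissues, had 0 counts in every library, which allows up to 3 counts, or 0.172 to 0.182 CPM in shELOVL5 and 0.177 to 0.187 CPM in shNC.

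**Figure D5:**
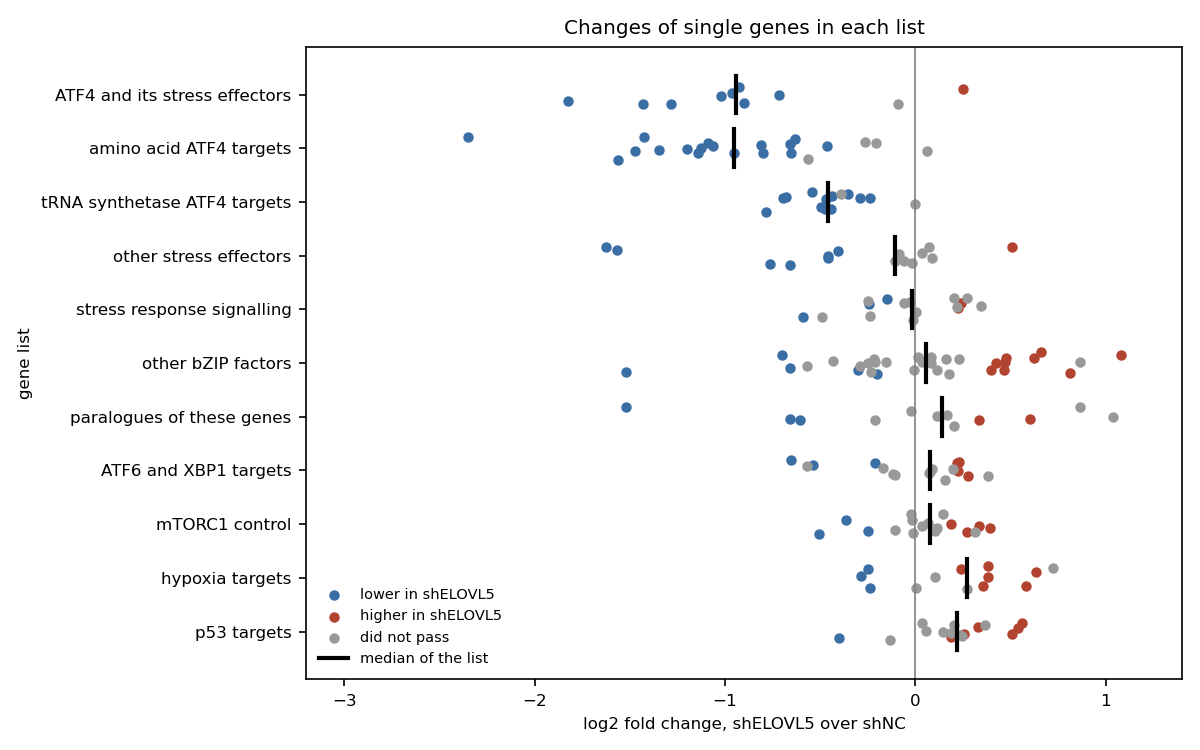
Log2 fold change (shELOVL5 over shNC) of every tested gene in each list, coloured by whether it was lower, higher or did not pass, with a black bar at the list's median. ATF4 and its stress effectors (-0.94), amino acid targets (-0.96) and tRNA charging genes (-0.46) have medians to the left, and the other 8 lists drawn have medians between -0.11 and 0.27.

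Other bZIP genes moved in both directions. Of 32 tested, 9 rose and 5 fell, with 9.22% and 11.2% as the shares over all genes, and a median log2 fold change of 0.058. The AP-1 genes JUND (290 and 300 CPM in shELOVL5 against 163 and 173 CPM in shNC), JUN (log2 fold change 0.40) and FOSL2 (1.08) rose, as did ATF6 (0.47), the sensor gene of another branch of folding stress. JDP2, the nearest relative of ATF3, fell to 3.26 and 3.87 CPM in shELOVL5, against 11.01 and 9.47 CPM in shNC (log2 fold change -1.52, adjusted p = 0.00148). Without shELOVL5 replicate 1 or replicate 2, 6 rose and 3 fell. CEBPG, the C/EBP partner that shares most amino acid targets with ATF4, did not pass (log2 fold change 0.11, adjusted p = 0.311).

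Among 12 tested relatives of the 10 genes, 2 rose, 3 fell and 7 did not pass (16.7% higher and 25% lower, against 9.22% and 11.2% of all tested genes). The falls were LRP8, JDP2 and CEBPA (log2 fold change -0.66), a myeloid C/EBP factor gene, and the rises included SESN3, a sestrin gene (log2 fold change 0.33, adjusted p = 0.0145, not past the threshold without shELOVL5 replicate 2 at 0.129). SESN1 (log2 fold change 0.20), CHAC2 (0.17) and TRIB2 (-0.02) did not pass.

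Programmes next to this set were counted for context. The endoplasmic reticulum genes driven by ATF6 and XBP1 were mixed, with 4 of 17 higher and 3 lower (23.5% and 17.6%, against 9.22% and 11.2% of all tested genes, median log2 fold change 0.075). CALR, the calreticulin gene, fell by 0.65, HERPUD1 by 0.54 and EDEM1 by 0.21 on the log2 scale, while the chaperone and isomerase genes PDIA6 (0.23) and HSP90B1 (0.22) rose. These counts fell to 1 rise and 1 fall without shELOVL5 replicate 1 and to 2 rises without shELOVL5 replicate 2 or shNC replicate 2, and 2 rose with no low-count filter. HERPUD1, EDEM1 and HSP90B1 did not pass without shELOVL5 replicate 1 (adjusted p = 0.0590, 0.0731 and 0.0891). Genes of mTORC1 control, the complex that SESN2 and DDIT4 restrain, were higher for 4 and lower for 3 of 18 (22.2% and 16.7%, against 9.22% and 11.2% of all tested genes, median 0.079). SEC13 (-0.51) and NPRL2 (-0.37) fell and MTOR (0.27), SEH1L (0.19) and AKT1S1 (0.33) rose. NPRL2 did not pass without any 1 library (adjusted p = 0.0616 to 0.179), and SEH1L and AKT1S1 did not pass without shELOVL5 replicate 1 or 2 or shNC replicate 1, nor MTOR without shELOVL5 replicate 1 (adjusted p = 0.0618). With all 4 libraries, DESeq2 or no low-count filter left 1 rise and 1 fall in the list, and SEH1L, AKT1S1 and NPRL2 did not pass in either. Leaving out libraries, the list held 0 rises without shELOVL5 replicate 1, 1 without shELOVL5 replicate 2 and 2 without shNC replicate 1, and 1 fall without shELOVL5 replicate 1 or either shNC library.

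Hypoxia targets, a group that DDIT4 and VLDLR can join, rose in 6 and fell in 3 of 13 tested cases (46.2% and 23.1%, against 9.22% and 11.2% of all tested genes, median 0.27). BNIP3, a mitophagy receptor gene, rose by 0.58, and the oxygenase genes KDM3A and EGLN1 rose by 0.38 each, while PGK1, a glycolytic kinase gene, fell by 0.25 on the log2 scale. BNIP3L rose by 0.24, though not without shELOVL5 replicate 2 (adjusted p = 0.100). Falls numbered 1 without shELOVL5 replicate 1, shELOVL5 replicate 2 or shNC replicate 1. The p53 targets, a group that SESN2 and ATF3 can join, rose in 6 and fell in 1 of 16 tested cases (37.5% and 6.25%, against 9.22% and 11.2% of all tested genes, median 0.22). PHLDA3 (0.56), TP53INP1 (0.54), TNFRSF10B (0.51) and AEN (0.25) rose and ZMAT3 fell (-0.40). Without shELOVL5 replicate 1, shELOVL5 replicate 2 or shNC replicate 2, 3, 2 and 3 of them rose. In that order AEN did not pass (adjusted p = 0.0824, 0.0995 and 0.0833), and TP53INP1 did not pass without shELOVL5 replicate 2 (0.0779).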

How the data were processed

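RNA from J.gamma1 cells was sequenced in 2 shELOVL5 and 2 shNC libraries, grouped by title. The deposited table holds whole-number counts per Ensembl gene, not normalized. Per the submitters' processing notes, which give no order or role, HISAT2 2.2.0, StringTie and build hg38 were used. No source used here gives the annotation, the counting step or its strand setting. Symbols came from a name table that matched 56105 of 64252 identifiers, and loci and exonic lengths from GENCODE release 29 (GRCh38).

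A model of the whole table was made in edgeR 4.0.16 (R 4.3.3) (filterByExpr with a minimum count of 10, TMM, glmQLFit with robust=TRUE, two-sided glmQLFTest, group as the sole term). Every adjusted p comes from this test, by the Benjamini-Hochberg method across the 17461 genes tested, unless another is named. SE is the log2 fold change divided by the square root of F. The fit was also run on counts simulated from the gene means of these libraries and its own dispersions. Such counts follow the model by construction, so they cannot show how well it describes these libraries.

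Named genes were the 10 genes, ELOVL5, up to 5 genes per list with the smallest p, the 5 nearest to ATF4 and genes sharing a locus. The genes and lists were chosen with earlier results of these data known. Replicates differed beyond sampling noise (chi-square per degree of freedom 5.19 within shELOVL5 and 5.58 within shNC, 22.8 to 24.8 between groups) and were kept apart. A count of 0 was taken to allow 3 counts, for counting error only. The 13 alternatives included DESeq2 1.42.0 and limma-voom (limma 3.58.1). Results for some genes are not reported here.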

Additional observations from a re-analysis of the deposited data

How the results depend on the processing

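Of 130 values of the 10 genes under the 13 alternatives, 129 kept their direction and their side of the threshold, and the exception was DDIT4 against a 1.2-fold change, which left 0 of the 10 genes higher. ATF4 passed in each alternative, with log2 fold changes of -1.31 to -1.25, and 8 of the 10 genes were lower in each. Scaling by total counts moved the median of all genes to 0.042. Over all genes, 899 were higher with no low-count filter, where 31428 genes were tested, and 408 were higher and 641 lower against a 1.2-fold change. Leaving out 1 library gave 696 to 1347 genes higher and 1176 to 1616 lower. Counts in the other lists stayed within 1.5 times in 214 of 260 cases. These include the rises in the amino acid and tRNA charging lists, which were 0 in every fit and so counted as unchanged. With the replicate block, 1551 genes were higher and 1902 lower, the 10 genes kept their calls, and ATF4 had adjusted p = 6.59e-08 by edgeR. The replicate differences of the groups were not correlated (r = -0.015 across 17461 genes). That value cannot show whether libraries with the same replicate number were prepared together. With 2 libraries a group, precision is limited, most of all for genes at low counts.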
